A study of Homo sapiens with 22 samples.

Results

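The comparison set HCT116 cells after 4 h of actinomycin D against HCT116 cells at 0 h. It used 6 of the 22 libraries of the series, chosen by their titles: 3 libraries at 4 h and 3 at 0 h. HCT116 is an established human colorectal carcinoma line. Both groups were labelled as the same actinomycin D treatment at 5 µg/ml, differing in its length, and both were sequenced from column-purified total RNA with a stranded library kit. The series asks how Staufen1, an RNA-binding protein, bears on FOXA1, a transcription factor of the gut epithelium, in colorectal cancer cells. Its actinomycin D arm also holds LS180 cells, a second colorectal line, and a 2 h time. The labels used here give no 4 h library without actinomycin D, so the drug and the time in culture cannot be told apart. Separate cultures are not mentioned for the replicates, and the spread behind each p-value could therefore be technical.

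Actinomycin D intercalates into DNA and stops RNA polymerases. Once synthesis stops, each transcript declines at the rate at which it is degraded, so that short-lived RNAs disappear first and long-lived ones make up a growing share of what is left. Short-lived mRNAs typically encode transcription factors, cytokines and feedback inhibitors, and many carry AU-rich elements in the 3′ untranslated region (3′ UTR) that recruit the deadenylation machinery. Long-lived mRNAs typically encode metabolic enzymes, ribosomal proteins and other housekeeping proteins.

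Libraries held 51.4 to 61.4 M counts at 4 h and 47.8 to 60.9 M at 0 h (M, 1000000). Levels are given as CPM, counts per 1000000 after TMM scaling of the library sizes. Each fold change is therefore relative to the transcripts that remained and not an absolute loss. Short noncoding RNAs took 16.6 to 16.9% of counts at 4 h and 17.7 to 18.7% at 0 h, and mitochondrial mRNAs took 0.109 to 0.157% at 4 h and 0.0756 to 0.0949% at 0 h. The libraries numbered 1 stood apart within both groups: 472 and 464 of 12395 genes differed by over 0.5 (log2) between library 1 and libraries 2 and 3 at 4 h, against 74 between libraries 2 and 3. At 0 h these counts were 446 and 413, against 60. Counts that lead a result are therefore also given without those libraries. Epithelial markers were present: EPCAM, an adhesion protein of epithelia, averaged 390.4 ± 17.9 CPM at 4 h and 301 ± 12.6 CPM at 0 h (mean ± SD, n = 3 each, as in all such pairs below). CEACAM5 had no count in any of the 6 libraries and VIL1 stayed under 1 CPM. Of the markers of other cell types, 7 of 8 goblet cell, 7 of 8 fibroblast, 9 of 10 immune and all 6 endothelial genes stayed under 1 CPM in all 6 libraries.

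Of 57820 genes in the tables, 17256 had enough counts to be tested. After 4 h 4524 genes were higher (26.2%) and 4085 lower (23.7%; edgeR quasi-likelihood test, adjusted p under 0.05, which is what "called" means below). Counts called in the gene lists below stand against these shares. In bulk RNA fewer cells of a kind and less RNA per cell cannot be told apart. The falls were much larger than the rises. At least 2-fold falls were called for 1697 genes (9.83%), at least 4-fold falls for 543, at least 8-fold falls for 185 and at least 16-fold falls for 75. At least 2-fold rises were called for 93 genes (0.539%), of which 84 averaged under 1 CPM at 0 h. The 3 libraries of the groups did not overlap for 4898 genes that were higher (28.4%) and 4490 that were lower (26%) at 4 h. The median log2 fold change of all genes was 0.02, with the 5th percentile at -1.82 and the 95th at 0.56. Without the libraries numbered 1, 4627 genes were called higher and 3993 lower, 108 and 1819 of them at least 2-fold.

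The split between rises and falls depended on the scaling. With library totals in place of TMM, 2274 genes were called higher and 4409 lower. With scaling to the summed counts of cytoplasmic ribosomal protein genes, the median of all genes moved by -0.36 (log2) and 112 genes were called higher against 7340 lower. Rises below are accordingly rises after TMM scaling and not relative to the whole of the counted RNA. Many of the small ones become falls relative to ribosomal protein mRNAs. Of the 1697 falls of at least 2-fold, 1619 kept that size with RLE size factors and 1580 with DESeq2, which shift genes the other way.

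**Figure D1:**
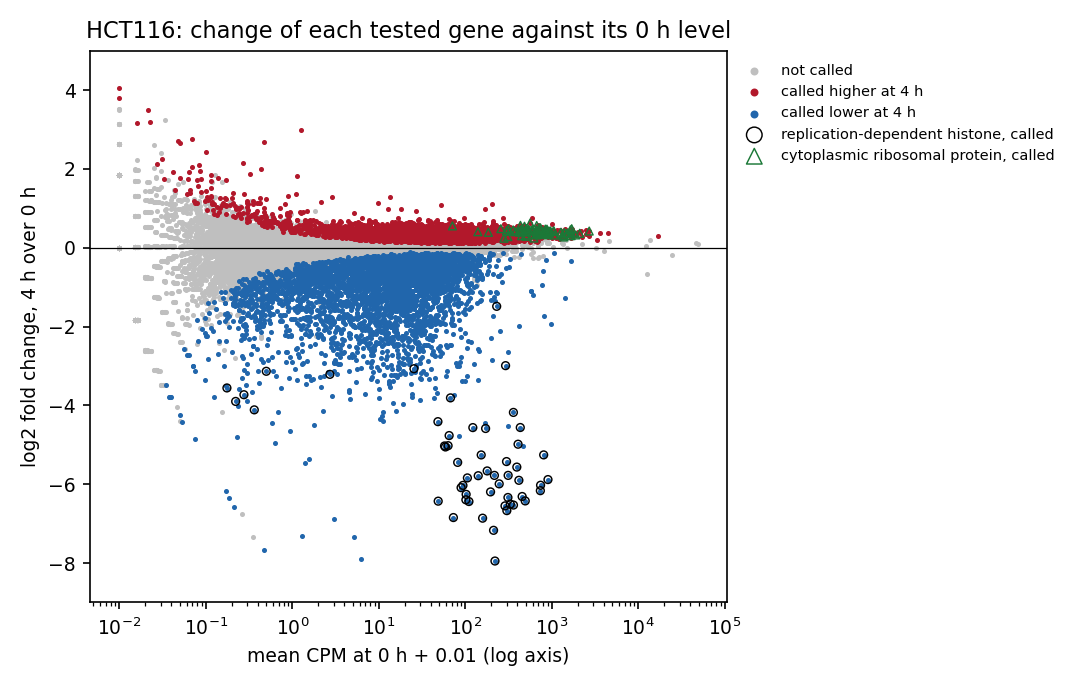
Change of each tested gene in HCT116 (log2 fold change, 4 h over 0 h) against its mean CPM at 0 h plus 0.01 on a log axis, with 5 genes outside the axis range not drawn. Falls reach far below the rises, called replication-dependent histones (circles) lie lowest among abundant genes, and called cytoplasmic ribosomal proteins (triangles) lie in a narrow band just above 0 that centres on 0 under ribosomal protein scaling.

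By the rule used for naming genes, the 14 nuclear mRNAs with the largest falls outside histones and at least 5 CPM at 0 h were taken, and they fell 13.8- to 32.8-fold. They were MYC, DUSP6, TRIB1, IER3, MED26, SOCS3, SERTAD3, DUSP2, ZNF503, RGS16, NFKBIA, IER5L, BAMBI and BDNF. All 14 hold at least 1 copy of the pentamer ATTTA in the 3′ UTR of the annotated transcript used, 7 hold the heptamer TATTTAT and 1 holds the nonamer TTATTTATT, the words that define AU-rich elements. Among 11159 protein-coding genes with at least 1 CPM at 0 h, 71.5% hold ATTTA, 33.9% TATTTAT and 8.86% TTATTTATT in the 3′ UTR, read on the transcript strand. The longer words contain the shorter ones. The first copy of the longest word in each of the 7 mRNAs is shown, 5′ to 3′ in DNA letters. The longest word each mRNA holds is in capitals, with 8 bases on either side. Sequences and positions come from GENCODE 29 transcripts (GRCh38), and a match describes the letters only.
NFKBIA, chr14:35401702-35401724, minus strand: acattttaTATTTATtgtgcttc
IER3, chr6:30743656-30743678, minus strand: ctaattaaTATTTATatgtattt
RGS16, chr1:182598870-182598894, minus strand: tgctgttgTTATTTATTattgtaat
DUSP2, chr2:96143211-96143233, minus strand: gcactttaTATTTATacagaaca
ZNF503, chr10:75398416-75398438, minus strand: gacactggTATTTATttatgtta
BDNF, chr11:27657655-27657677, minus strand: ctacaatcTATTTATtggacatg
SOCS3, chr17:78356835-78356857, minus strand: tttgcacaTATTTATatttatat
RGS16, which encodes an inhibitor of G protein signalling, carries 4 copies of TATTTAT, as does IER3. MYC, DUSP6 and TRIB1, the 3 with the largest falls, hold ATTTA but not TATTTAT, with 4, 1 and 1 copies.

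MYC, a transcription factor that drives growth and is activated by Wnt signalling in colorectal tumours (ENSG00000136997; chromosome 8, 127735434 to 127741434, plus strand, GRCh38), had 17.5, 12.7 and 12.7 CPM in the 4 h libraries and 493, 449 and 468 CPM in the 0 h libraries. The groups lay far apart, with 36.7 ± 1.68 CPM at 2 h between them. Its log2 fold change was -5.04 (SE 0.12; edgeR adjusted p = 1.31e-15), a 32.8-fold fall to 3.05% of the 0 h level. DUSP6, a phosphatase that inactivates ERK (ENSG00000139318; chromosome 12, 89347232 to 89353271, minus strand, GRCh38), had 3.66, 2.91 and 2.54 CPM at 4 h and 79.1, 86.1 and 86.3 CPM at 0 h and fell 27.5-fold (edgeR adjusted p = 2.09e-15). TRIB1, a pseudokinase that directs C/EBP proteins to degradation, stood at 16.8, 12.3 and 11.9 CPM at 4 h and 325, 310.3 and 307 CPM at 0 h. IER3, an immediate early gene that modulates survival signalling, stood at 8.29, 7.79 and 7.02 CPM at 4 h and 156, 176 and 175 CPM at 0 h. The rule took only genes whose groups do not overlap, so no 4 h library reached the lowest 0 h library for any of the 14.

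NFKBIA encodes IκBα, which holds NF-κB in the cytoplasm, and its level was 2.33, 1.64 and 2.04 CPM at 4 h against 33, 27.5 and 28.4 CPM at 0 h (14.7-fold lower). SOCS3, an inhibitor of JAK and STAT signalling, stood at 0.783, 0.396 and 0.462 CPM at 4 h and 11.1, 10.7 and 10.6 CPM at 0 h (19.4-fold lower). The ERK phosphatase DUSP2 fell 17.5-fold, to 0.891 ± 0.330 CPM at 4 h, against 15.9 ± 0.673 CPM at 0 h. BAMBI, a decoy receptor that blunts TGF-β signalling, fell 14-fold, to 0.724 ± 0.0752 CPM at 4 h, against 10.1 ± 0.771 CPM at 0 h. MED26, a subunit of the Mediator complex that links transcription factors to RNA polymerase II, fell 21.1-fold, to 0.536 ± 0.0843 CPM at 4 h, against 11.3 ± 0.719 CPM at 0 h. BDNF, a neurotrophin gene, fell 13.8-fold, to 1.73 ± 0.356 CPM at 4 h, against 24 ± 3.62 CPM at 0 h. At 2 h NFKBIA averaged 3.64, SOCS3 0.625, DUSP2 1.14 and BAMBI 1.12 CPM, between the values at 0 h and 4 h. The remaining 4, IER5L, RGS16, ZNF503 and SERTAD3, fell between 14.1- and 17.8-fold.

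**Figure D2:**
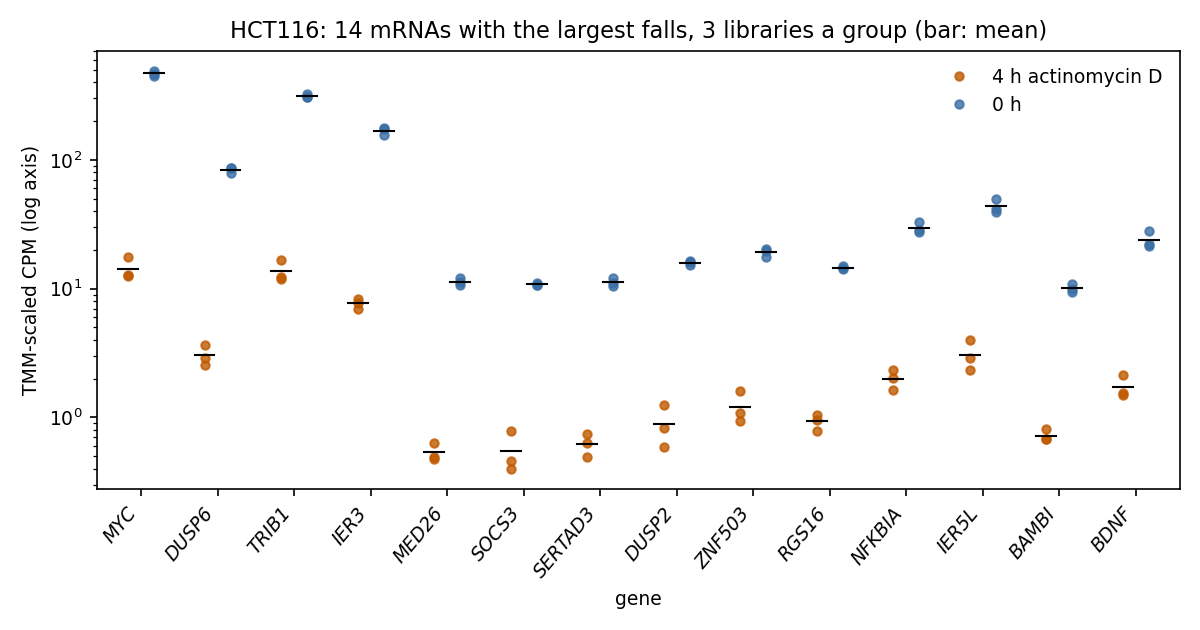
TMM-scaled CPM on a log axis of the 14 named nuclear mRNAs with the largest falls, in order of their fall, with 3 libraries per group at 4 h (left of each pair) and 0 h (right) and a bar at the group mean. The falls run from 32.8-fold for MYC to 13.8-fold for BDNF.

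Replication-dependent histone mRNAs fell most of all. These mRNAs end in a stem-loop instead of a poly(A) tail, are made in S phase and are degraded when DNA synthesis stops. Of 72 genes named so in the tables, 62 were tested and 53 were called lower, all of them at least 2-fold, with none called higher. The list's median log2 fold change was -5.34, against 0.02 over all genes. Their summed level was 283 to 460.4 CPM in the 4 h libraries and 10515 to 13263 CPM in the 0 h libraries. Of the 75 genes that fell at least 16-fold, 44 were histones of this kind. Without the libraries numbered 1, 52 were called lower.

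HIST1H3J, an H3 gene (ENSG00000197153; chromosome 6, 27890382 to 27893106, minus strand, GRCh38), had 1.07, 0.811 and 0.764 CPM at 4 h and 192, 224 and 245 CPM at 0 h. The fall was 247-fold, or -7.95 on the log2 scale with an SE of 0.23 (edgeR adjusted p = 9.35e-15). HIST1H2BJ, an H2B gene, stood at 1.5, 1.31 and 1.26 CPM at 4 h and 147, 159 and 170.0 CPM at 0 h. The H2A genes HIST1H2AD and HIST2H2AC fell 115- and 55.1-fold. By 2 h HIST1H3J was already at 3.12 ± 1.24 CPM. The 9 genes not called averaged under 1 CPM at 0 h, 6 of them with no count in these 6 libraries. The smallest called fall was that of HIST1H4C, an H4 gene named here after its values were seen, at 82.4 ± 4.25 CPM at 4 h and 231 ± 27.3 CPM at 0 h (log2 fold change -1.49). Histone copies of near-identical sequence share reads in these counts, so levels of single copies are uncertain. The list of replacement histones, grouped here as polyadenylated, did not follow. In it 7 of 12 were called higher and 1 lower. The median was 0.32, which became -0.09 with ribosomal protein scaling. H3F3A, which encodes the H3.3 variant, rose 1.37-fold, to 243 ± 9.66 CPM at 4 h, against 177 ± 7.04 CPM at 0 h. The H3F3A call was lost with ribosomal protein scaling. The member called lower was H2AFX, the variant phosphorylated at DNA breaks, which fell 1.69-fold.

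Immediate early genes, which are switched on within minutes of a stimulus without new protein synthesis, fell almost as a group. Their list, like the others, was chosen with earlier results of these data known. Of 58 tested, 55 were called lower, 50 of them at least 2-fold, and 2 were called higher. The median log2 fold change was -2.20. IER2 stood at 7.6, 6.9 and 6.47 CPM at 4 h and 55.8, 62.4 and 64.4 CPM at 0 h, and KLF4, a zinc finger transcription factor of differentiating intestinal epithelium, at 3.95, 4.01 and 3.59 CPM at 4 h and 41.6, 46.9 and 46.4 CPM at 0 h. KLF4 fell 11.7-fold and IER2 8.69-fold (edgeR adjusted p = 2.56e-15 and 2.56e-15). The 2 members called higher were FOSB, an AP-1 subunit, and BTG3, an antiproliferative gene. FOSB stood at 1.58, 1.56 and 1.21 CPM at 4 h and 0.838, 0.767 and 0.532 CPM at 0 h, which is low in both groups. BTG3 averaged 49.5 ± 0.676 CPM at 4 h and 40.3 ± 2.55 CPM at 0 h and went below its 0 h level with ribosomal protein scaling.

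Feedback inhibitors of the ERK pathway showed 25 of 29 called lower, 1 higher and a median of -1.34. SPRY4, which blocks receptor signalling upstream of RAS, fell 8.73-fold, to 3.75 ± 0.613 CPM at 4 h, against 32.8 ± 0.791 CPM at 0 h. The phosphatase DUSP5 fell 5.55-fold, to 12.4 ± 2.58 CPM at 4 h, against 69.2 ± 4.53 CPM at 0 h. The ETS factor gene ETV4 was the exception at 26.8 ± 1.15 CPM at 4 h and 23.2 ± 1.71 CPM at 0 h (log2 fold change 0.21; edgeR adjusted p = 0.0147), a direction that turned with ribosomal protein scaling and a call that was lost without any one of 0 h library 1 and 4 h libraries 2 and 3. Among NF-κB inhibitors, subunits and target ligands 17 of 29 were called lower and 3 higher. LIF, a cytokine of the interleukin 6 family, fell 5.51-fold and REL, an NF-κB subunit, 3.25-fold. NFKBIB, which encodes IκBβ, averaged 49.2 ± 5.23 CPM at 4 h and 36.9 ± 2.82 CPM at 0 h, so that it and NFKBIA were called in opposite directions, although with ribosomal protein scaling NFKBIB moved little.

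In the BMP and TGF-β list 22 of 31 were called lower and none higher. SMAD7, the inhibitory SMAD, fell 14.3-fold, to 0.315 ± 0.195 CPM at 4 h, against 4.63 ± 0.866 CPM at 0 h. The ligand BMP4 fell 7.94-fold, to 10.1 ± 0.178 CPM at 4 h, against 79.99 ± 7.34 CPM at 0 h, and TGIF1, a SMAD corepressor, fell 6.82-fold. The signal-transducing SMAD5 was at 86.6 ± 2.8 CPM at 4 h and 83.3 ± 4.19 CPM at 0 h and was not called. Of 35 Wnt targets and stem cell genes 16 were called lower and 3 higher. The secreted Wnt inhibitor DKK1 stood at 18.5, 10.9 and 11.8 CPM at 4 h and 152, 137 and 133 CPM at 0 h and fell 10.2-fold. AXIN2, the negative feedback scaffold of the pathway, fell 8.51-fold and SOX9, a progenitor transcription factor, 3.99-fold. CTNNB1, which encodes β-catenin, rose 1.26-fold, to 525 ± 8.13 CPM at 4 h, against 418 ± 11.7 CPM at 0 h, and turned slightly negative with ribosomal protein scaling. In the Notch and Hippo list 17 of 26 were called lower and 1 higher. HES1, a Notch target repressor, fell 10.3-fold, and the Hippo kinase LATS2 3.37-fold. The ligand JAG1 fell 2.67-fold, to 38 ± 4.09 CPM at 4 h, against 102 ± 1.26 CPM at 0 h. YAP1, the effector of Hippo signalling, was the member called higher (1.15-fold) and was lower with ribosomal protein scaling.

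Of 30 receptor tyrosine kinases and ligands 17 were called lower and 3 higher. The ephrin ligands EFNA1, EFNB2 and EFNA4 fell 6.61-, 5.27- and 4.32-fold. EFNB2 stood at 25, 20.4 and 20.4 CPM at 4 h and 105, 119 and 124 CPM at 0 h, with no overlap between the groups. Their receptor gene EPHA4 fell 2.53-fold. FGFR4, a fibroblast growth factor receptor, and BTC, an EGF receptor ligand, rose 1.29- and 1.41-fold. With ribosomal protein scaling FGFR4 turned slightly negative and BTC was no longer called (0.10, log2).

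Of 36 p53 targets 20 were called lower and 7 higher, with a median of -0.33. SESN2, a stress-induced inhibitor of mTORC1, stood at 2.32, 2.02 and 1.95 CPM at 4 h and 20.7, 24 and 25 CPM at 0 h (11-fold lower). The polo-like kinases PLK2 and PLK3 fell 7.71- and 4.27-fold and the apoptotic nuclease AEN 5.15-fold. RPS27L, a ribosomal protein-like p53 target, rose 1.47-fold, to 104 ± 0.718 CPM at 4 h, against 71 ± 9.85 CPM at 0 h. The RPS27L call was lost with ribosomal protein scaling. In the BCL2 family 9 of 21 were called lower and 7 higher. MCL1, an antiapoptotic member, stood at 64.4, 54.3 and 57.1 CPM at 4 h and 239.6, 267 and 254 CPM at 0 h (4.33-fold lower; edgeR adjusted p = 5.9e-14). The proapoptotic members BCL2L11 and BBC3, which encode BIM and PUMA, fell 5.34- and 4.77-fold, and BAK1, a pore former, 1.45-fold. BCL2L12 and BNIP3 rose 1.41- and 1.36-fold, rises no longer called with ribosomal protein scaling.

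Of 29 cyclins, cyclin-dependent kinases and their inhibitors 10 were called lower and 6 higher. CDKN1B, which encodes the inhibitor p27, fell 5.94-fold, to 5.34 ± 0.129 CPM at 4 h, against 31.7 ± 0.255 CPM at 0 h. The transcriptional cyclins CCNL1 and CCNT2 fell 4.33- and 2.76-fold, whereas CDK2 rose 1.38-fold, a rise no longer called with ribosomal protein scaling. Of 44 replication and S phase genes 25 were called higher and 10 lower (22.7% lower, near the 23.7% of all genes). The list's median of 0.21 became -0.19 with ribosomal protein scaling. The exceptions with the largest falls were the transcription factors E2F2 (7.08-fold), E2F8 (5.14-fold) and E2F3 (3.3-fold). E2F2 stood at 4.47, 3.84 and 4.32 CPM at 4 h and 28.5, 30.1 and 31 CPM at 0 h. Of 36 mitosis and G2 genes 14 were called higher and 5 lower. NUF2, a kinetochore protein gene, rose 1.53-fold, and CDC25A, the phosphatase that activates CDK2, fell 2.49-fold.

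Of 25 genes of the ATF4 stress response 13 were called lower and 5 higher. PPP1R15A and PPP1R15B, which direct dephosphorylation of eIF2α, fell 3.75- and 2.86-fold and CEBPB 4.92-fold. The amino acid enzymes ASNS and PSAT1 were called higher (1.28- and 1.32-fold), with overlapping libraries, and both lay at or below 0 with ribosomal protein scaling. Both calls were lost without 4 h library 2 or 3, and that of ASNS without 0 h library 1. Of 27 cholesterol synthesis genes 13 were called higher and 7 lower (25.9% lower, near the 23.7% of all genes). INSIG1, which retains the sterol sensor in the endoplasmic reticulum, fell 2.06-fold, to 34.2 ± 0.977 CPM at 4 h, against 70.4 ± 3.1 CPM at 0 h. Of 32 glycolysis and hypoxia genes 18 were called higher and 8 lower (25% lower, near the 23.7% of all genes). VEGFA and ADM, a pair of hypoxia-induced secreted factors, fell 6.09- and 5.31-fold and the glucose transporter SLC2A1 1.38-fold. The enzyme PFKM rose 1.44-fold, a rise no longer called with ribosomal protein scaling. Of 22 circadian genes 9 were called lower and 3 higher, with BHLHE40 6.97-fold and NFIL3 5.72-fold lower. In the interferon list, 12 of 40 were called lower and 16 higher (30% and 40%, against 23.7% and 26.2% of all genes). IRF1, the transcription factor of that response, fell 8.81-fold, to 2.17 ± 0.154 CPM at 4 h, against 19.2 ± 1.16 CPM at 0 h.

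In the MYC network 5 of 12 were called lower and 2 higher. MXD1, a MAX partner that opposes MYC, fell 3.63-fold, to 0.814 ± 0.322 CPM at 4 h, against 2.99 ± 0.467 CPM at 0 h. Of 28 metallothionein and NRF2 genes 12 were called higher and 8 lower (42.9% and 28.6%, against 26.2% and 23.7% of all genes). The list's median was 0.31 after TMM scaling, and the members named here went against it. The zinc exporter SLC30A1 fell 4.82-fold and MTF1, the transcription factor that senses zinc, 2.46-fold. HMOX1, which degrades haem, averaged 24.5 ± 1.62 CPM at 4 h and 36.4 ± 0.654 CPM at 0 h.

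Zinc finger genes named ZNF with a number, most of which encode DNA-binding repressors, formed the largest list. Of 443 tested, 325 were called lower, 214 of them at least 2-fold, and 9 were called higher. That is a larger share than the 23.7% of all genes called lower, and the median log2 fold change was -1.04. ZNF627 stood at 1.85, 2.04 and 1.67 CPM at 4 h and 24.6, 24.2 and 23.8 CPM at 0 h and fell 13.1-fold. ZNF57, ZNF16 and ZNF791 fell 10.4-, 7.47- and 3.92-fold. The members against the trend, ZNF664 and ZNF428, rose 1.38- and 1.32-fold, rises that were no longer called with ribosomal protein scaling. Of 53 chromatin regulators 35 were called lower and 8 higher. BCOR, a corepressor, fell 5.14-fold, TET2, which oxidises methylcytosine, 3.05-fold, and the H3K27 demethylase KDM6A 2.9-fold. CHD2, a chromatin remodeller, averaged 41.6 ± 4.13 CPM at 4 h and 89 ± 2.94 CPM at 0 h, a fall that was no longer called (-0.15, log2) with effective gene length in the fit. The deacetylases HDAC1 and HDAC3 went the other way (1.48- and 1.36-fold higher, HDAC3 no longer called with ribosomal protein scaling).

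Of 44 members of the RNA polymerase II list 23 were called higher and 13 lower (29.5% lower, against 23.7% of all genes). Besides MED26, MEPCE, which caps 7SK RNA, fell 3.27-fold, BRD2, a bromodomain reader of acetylated histones, 2.38-fold and the general factor GTF2E1 2.14-fold. BRD2 stood at 95.6, 90.02 and 88.6 CPM at 4 h and 218, 219 and 215 CPM at 0 h. Of 24 SR proteins and their kinases 8 were called lower and 7 higher (11 higher without the libraries numbered 1). These are 33.3% and 29.2%, against 23.7% and 26.2% of all genes. The kinase CLK1, which phosphorylates SR proteins, fell 6.66-fold, to 3.89 ± 0.518 CPM at 4 h, against 26 ± 3.75 CPM at 0 h, and CLK4 2.85-fold. Of 20 hnRNP genes 13 were called higher and 1, HNRNPF, lower, at 396 ± 15 CPM at 4 h and 439 ± 22.4 CPM at 0 h, a call that DESeq2 did not make and that was lost without any one of 4 h library 1 and 0 h libraries 2 and 3. The hnRNP median of 0.24 became -0.16 with ribosomal protein scaling.

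Of 50 deadenylation, decapping and exosome genes 21 were called higher and 13 lower, and the share called lower was near the 23.7% of all genes. The falls were led by BTG1, BTG2, TOB1 and TOB2, which recruit the CCR4-NOT deadenylase and fell 6.94-, 6.15-, 3.26- and 2.57-fold. BTG1 stood at 3.69, 2.47 and 2.1 CPM at 4 h and 21.3, 17.6 and 18.8 CPM at 0 h. Of 16 genes for AU-rich element binding proteins 6 were called higher and 5 lower (31.25% lower, against 23.7% of all genes). Of the 5 falls 4 were in zinc finger proteins that promote decay: ZFP36, ZFP36L1 and ZFP36L2 fell 4.2-, 4.75- and 5.66-fold, and the nuclease ZC3H12A 6.69-fold. ZFP36L1 stood at 10.4, 8.7 and 7.5 CPM at 4 h and 41.5, 41.7 and 43.3 CPM at 0 h. Of 19 genes of nonsense-mediated decay and Staufen function 10 were called higher and 2 lower. UPF3B, an exon junction adaptor of that pathway, rose 1.69-fold, to 26.4, 28.4 and 30.1 CPM at 4 h, against 16.9, 17.5 and 16 CPM at 0 h, and stayed higher with ribosomal protein scaling. SMG8, a regulator of the kinase SMG1, fell 3.01-fold, to 22.1 ± 0.322 CPM at 4 h, against 66.5 ± 3.06 CPM at 0 h.

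The genes the series centres on differed widely. FOXA1 (ENSG00000129514; chromosome 14, 37589984 to 37596059, minus strand, GRCh38) was low in HCT116, with 0.431, 0.277 and 0.142 CPM at 4 h and 3.17, 2.39 and 2.19 CPM at 0 h. The 8.97-fold fall to 11.1% of the 0 h level (-3.17 on the log2 scale, SE 0.26) passed the test with an edgeR adjusted p of 7.55e-09. FOXA3 fell 5.01-fold, to 0.733 ± 0.240 CPM at 4 h, against 3.7 ± 0.742 CPM at 0 h. FOXA2 had no count in the 4 h libraries and 0.0898, 0.0178 and 0.0197 CPM in the 0 h libraries, near the limit of detection, and its call as lower was lost without 0 h library 1. STAU1 (ENSG00000124214) stood at 94.8, 95.7 and 95.5 CPM at 4 h and 83.8, 87.8 and 85.7 CPM at 0 h (log2 fold change 0.15; edgeR adjusted p = 0.021), and STAU2 at 35.3 ± 1.14 CPM at 4 h and 29.4 ± 1.98 CPM at 0 h (log2 fold change 0.26). Both turned negative with ribosomal protein scaling, and the STAU1 call was lost without any one of 4 libraries (both libraries numbered 1 and 4 h libraries 2 and 3). In a list of 20 transcription factors and regulators of the intestinal epithelium that includes the FOXA genes, 14 were called lower, 12 of them at least 2-fold, and 1 higher. OVOL1 fell 11.1-fold and KLF5 6.1-fold, while the splicing regulator ESRP1 rose 1.25-fold, a direction that turned with ribosomal protein scaling. CDX2, the intestinal identity factor, fell 2.99-fold, to 4.72 ± 0.508 CPM at 4 h, against 14.1 ± 0.828 CPM at 0 h. Without the libraries numbered 1, 11 members of the list were called lower.

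**Figure D3:**
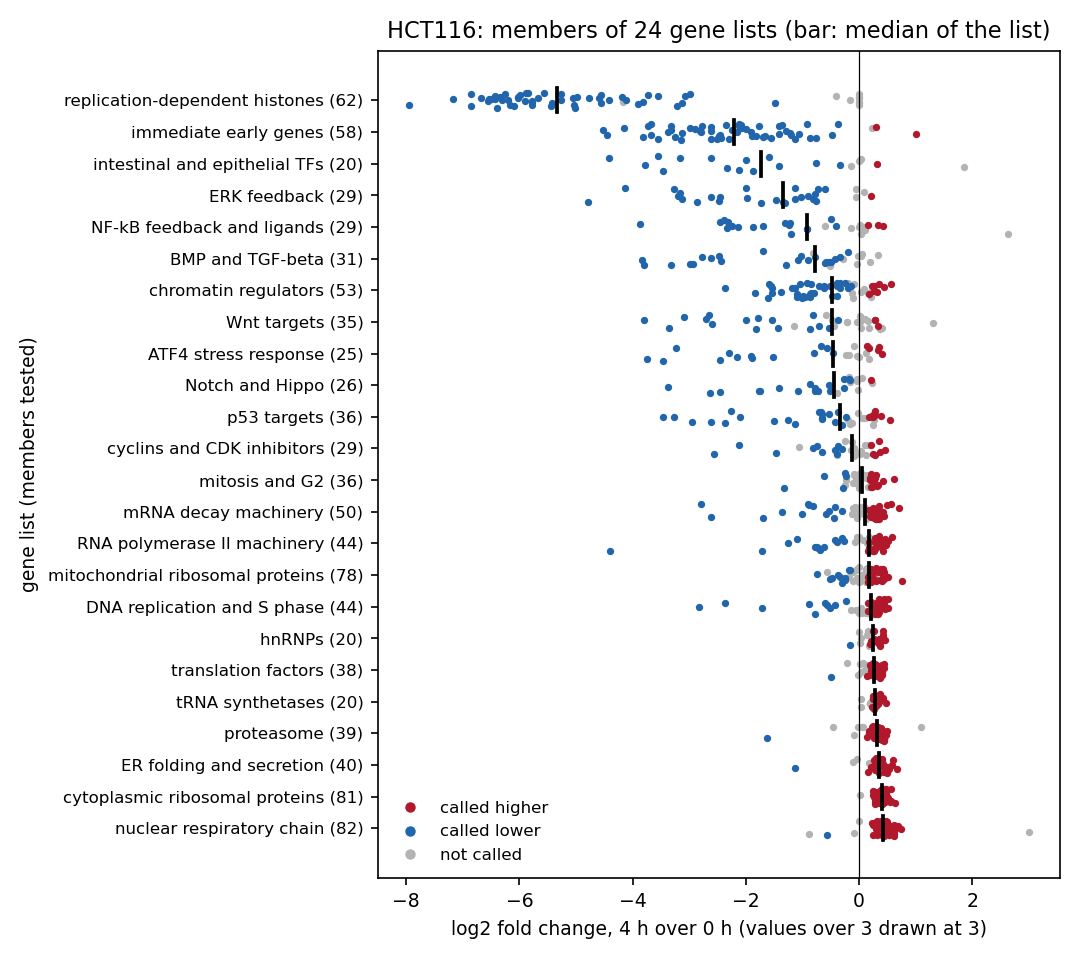
Log2 fold change (4 h over 0 h) of each tested member of 24 gene lists in HCT116, red where called higher, blue where called lower, grey where not called, with a bar at the list's median and values above 3 drawn at 3. Histone, immediate early and feedback genes spread far to the left, and the housekeeping lists from hnRNPs downwards lie in a narrow band to the right of 0, most of which moves to 0 or below with ribosomal protein scaling.

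Housekeeping mRNAs made up the other end. Of 81 cytoplasmic ribosomal protein genes 80 were called higher and none lower, with a median log2 fold change of 0.41 that becomes 0.01 when these genes themselves set the scale. RPL11 stood at 844, 869 and 893 CPM at 4 h and 593, 569 and 524 CPM at 0 h and RPS27 at 697, 713 and 709 CPM at 4 h and 487, 501 and 463 CPM at 0 h. Of 82 nuclear genes for the respiratory chain 76 were called higher and 1 lower, with a median of 0.43 (0.04 with ribosomal protein scaling). UQCRB, a subunit of complex III, rose 1.55-fold, to 323 ± 16.9 CPM at 4 h, against 208 ± 12.6 CPM at 0 h. NDUFV3, of complex I, was the member called lower, at 27.4 ± 0.793 CPM at 4 h and 40.7 ± 0.764 CPM at 0 h. In the list for folding and secretion in the endoplasmic reticulum 36 of 40 were called higher and 1 lower. HSP90B1, the chaperone GRP94, stood at 1116, 1109.8 and 1144 CPM at 4 h and 727, 810.1 and 784 CPM at 0 h, and SEC61G, of the translocon, rose 1.59-fold. The HSP90B1 rise was no longer called with ribosomal protein scaling. SEC24B, of the COPII vesicle coat, fell 2.19-fold.

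Proteasome genes were called higher in 31 of 39 cases, translation factor genes in 29 of 38 and tRNA synthetase genes in 15 of 20. Their medians of 0.32, 0.26 and 0.28 became -0.08, -0.14 and -0.12 with ribosomal protein scaling. The tables hold 2 gene IDs under the symbol PSMA2, a core subunit of the proteasome. The less expressed one (ENSG00000256646) stood at 6.55, 6.11 and 6.22 CPM at 4 h and 19.1, 19.9 and 19 CPM at 0 h and was the entry called lower. The other was called higher, a call that was lost with ribosomal protein scaling. EIF5, which sets start codon choice, was the translation factor called lower (2 were without the libraries numbered 1), at 229 ± 10.7 CPM at 4 h and 322 ± 7.66 CPM at 0 h. Of 78 mitochondrial ribosomal protein genes 44 were called higher and 10 lower, with a median of 0.19 (-0.21 with ribosomal protein scaling). MRPL44 and MRPL36 fell 1.67- and 1.43-fold. Of 24 ubiquitin and heat shock genes 14 were called higher and 4 lower. DNAJB1, a cochaperone of HSP70, stood at 73.3, 96 and 92.5 CPM at 4 h and 229, 222 and 217 CPM at 0 h.

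The 8 protein-coding genes with the highest CPM at 0 h had changes between -0.02 and 0.42 (log2). EEF1A1, which brings tRNAs to the ribosome, stood at 21546, 20296 and 20792 CPM at 4 h and 18281, 16464 and 16506 CPM at 0 h (log2 fold change 0.29, which turned negative with ribosomal protein scaling). GAPDH, HSP90AB1, ENO1, RPLP0 and EEF2 had log2 fold changes of 0.38, 0.36, 0.31, 0.42 and 0.19 and were called higher. With ribosomal protein scaling all of them but RPLP0 lay below 0, and RPLP0 was no longer called. The EEF2 call was lost without 4 h library 2 or 3. ACTG1 (0.17) and HSPA8 (-0.02) were not called, and HSPA8 stood at 2464, 3588 and 3568 CPM at 4 h and 3178, 3393 and 3165 CPM at 0 h, with 4 h library 1 below all others. The 14 named nuclear transcripts outside short noncoding RNAs with the largest rises, with at least 5 CPM at 4 h, rose 1.6- to 1.84-fold and stayed above 0 with ribosomal protein scaling, where MALAT1, POLR2J3 and DHRS1 were no longer called. They were GRB14, MALAT1, UPF3B, COX6C, HMGN3, SAT1, HRSP12, LSM5, PON2, NDUFB3, HMGB2, POLR2J3, DHRS1 and RCN2. GRB14, an adaptor that inhibits the insulin receptor, stood at 10.05, 9.33 and 9.51 CPM at 4 h and 5.45, 5.1 and 5.11 CPM at 0 h. SAT1, which acetylates spermine and spermidine, stood at 111, 106 and 109 CPM at 4 h and 69.8, 65.4 and 61.4 CPM at 0 h. HMGB2, a DNA-bending protein gene, stood at 292, 356 and 362 CPM at 4 h and 186, 231 and 212 CPM at 0 h. COX6C and NDUFB3 belong to the respiratory chain and LSM5 to the ring that binds the 3′ ends of oligoadenylated mRNAs and U6 RNA.

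Mitochondrial transcripts, made by a separate polymerase from a circular genome, divided by gene. Of the 13 mitochondrial mRNAs 7 were called higher and 4 lower. MT-ND6, the only one of the 13 encoded on the light strand, stood at 0.463, 0.494 and 0.569 CPM at 4 h and 7.63, 12.9 and 10.3 CPM at 0 h. The log2 change was -4.33 with an SE of 0.22 (20.2-fold lower; edgeR adjusted p = 1.03e-11), and the level had reached 1.44 ± 0.179 CPM by 2 h. MT-CO3, a subunit of cytochrome c oxidase, stood at 506, 403 and 415 CPM at 4 h and 239.6, 194 and 176 CPM at 0 h and rose 2.17-fold (edgeR adjusted p = 4.24e-08). MT-ND1, MT-ND2 and MT-ND4 are named after their values were seen. MT-CO1 and MT-ND4 rose 1.69- and 1.89-fold, whereas MT-ND1, MT-ND2 and MT-ATP8 fell 1.56-, 1.44- and 1.98-fold. Mitochondrial ribosomal and transfer RNAs took only 0.0304 to 0.0472% of counts at 4 h and 0.0170 to 0.0227% at 0 h, so their changes rest on a small share. Both ribosomal RNAs rose, MT-RNR1 to 33.3 ± 5.33 CPM at 4 h, against 13.5 ± 3.13 CPM at 0 h, and MT-RNR2 to 332 ± 78.8 CPM at 4 h, against 169 ± 20.04 CPM at 0 h. In library 1 at 4 h most of these RNAs were higher than in the other two, and without the libraries numbered 1 the median of the 13 mRNAs was 0.14, against 0.33 with all libraries, with 6 called higher and 5 lower. The strand setting of the counting is not given in the sources used here, so reads from opposite strands may not have been kept apart.

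**Figure D4:**
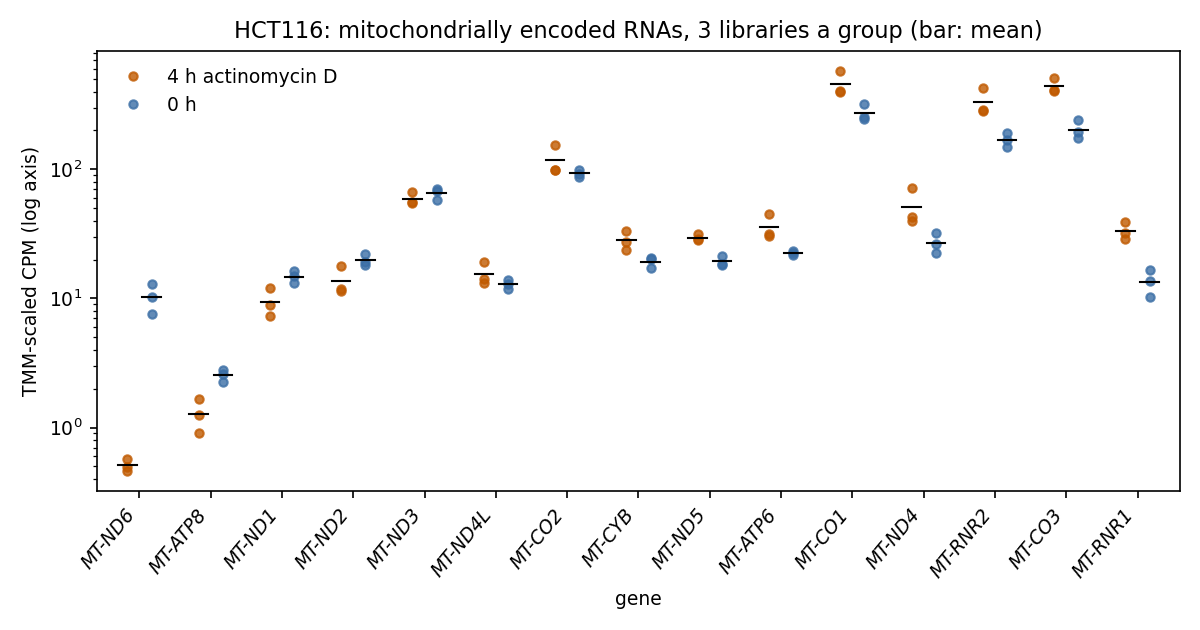
TMM-scaled CPM on a log axis of the 13 mitochondrial mRNAs and both ribosomal RNAs, from the lowest to the highest fold change, with 3 libraries per group at 4 h (left of each pair) and 0 h (right) and a bar at the group mean. MT-ND6 falls about as far as the nuclear mRNAs with the largest falls, while MT-CO3, MT-RNR2 and MT-RNR1 lie higher at 4 h without overlap, under ribosomal protein scaling too.

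Short noncoding RNAs fell more often than they rose, with 69 of 207 called lower and 12 higher. Of 23 spliceosomal U snRNA genes and copies 18 were called lower and none higher, with a median of -1.28. RNU12, the branch-site snRNA of the minor spliceosome, stood at 2.22, 2.63 and 2.79 CPM at 4 h and 3.94, 7.38 and 7.3 CPM at 0 h, and RNU5E-1, a U5 copy, at 3.55, 1.42 and 2.15 CPM at 4 h and 4.79, 12.5 and 9.76 CPM at 0 h. RNU1-2, a U1 copy, averaged 268 ± 52.6 CPM at 4 h and 609 ± 284 CPM at 0 h and its groups overlapped, and its call as lower was lost without 0 h library 3. Near-identical copies share reads, and library 1 lay lowest of the 0 h libraries for each of these 3. Without the libraries numbered 1, 22 U snRNA members were called lower. The U3 copy SNORD3D fell 8.19-fold, to 1.18 ± 0.452 CPM at 4 h, against 9.65 ± 3.91 CPM at 0 h. Of 70 box H/ACA snoRNAs 13 were called lower and 2 higher, and of 31 box C/D snoRNAs 6 lower and 1 higher. The shares called lower (18.6% and 19.4%) lie below the 23.7% of all genes, but 55 and 24 members were not called. Shares called higher were 2.86% and 3.23%, against 26.2% of all genes, and the median log2 fold changes were -0.43 and -0.50, against 0.02. Small Cajal body RNAs, which guide modification of snRNAs, went the other way, with 6 of 16 called higher and 1 lower. SCARNA9 stood at 20.4, 23 and 21.6 CPM at 4 h and 9.39, 10.4 and 9.64 CPM at 0 h, and SCARNA7 at 99.1, 117 and 116 CPM at 4 h and 56, 53.3 and 47.4 CPM at 0 h (2.21- and 2.12-fold higher). SNORD13, which guides acetylation of 18S ribosomal RNA, rose 1.99-fold. The RNA polymerase III transcripts RN7SL1, RN7SK, RMRP and RPPH1, of which all but RPPH1 are named after their values were seen, were not called, with log2 fold changes of 0.13, -0.18, 0.05 and 0.20, and RN7SL1, RMRP and RPPH1 turned negative with ribosomal protein scaling. The Y RNAs RNY1 and RNY3, which bind the Ro protein, fell 1.54- and 2.1-fold, but RNY1 was not called by DESeq2 or without any one of 4 h libraries 1 and 3 and 0 h libraries 2 and 3.

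Of 24 named long noncoding RNAs, most of them nuclear, 7 were called higher and 6 lower, shares near the 26.2% and 23.7% of all genes. MALAT1, of nuclear speckles, stood at 1134, 927 and 909.9 CPM at 4 h and 615, 579.6 and 559.7 CPM at 0 h and rose 1.69-fold (edgeR adjusted p = 5.95e-05). MIR17HG, the host transcript of the miR-17-92 cluster, fell 5.6-fold, to 1.56 ± 0.290 CPM at 4 h, against 8.78 ± 0.884 CPM at 0 h. LINC00511 fell 2.77-fold. Of 20 snoRNA host genes, many of which are degraded by nonsense-mediated decay once spliced, 9 were called lower and 6 higher. SNHG15 and SNHG12 fell 2.17- and 1.96-fold, of which SNHG15 was at 0.02 (log2) once each library's effective gene length entered the fit, whereas SNHG6 and ZFAS1 rose 1.59- and 1.35-fold, and ZFAS1 was no longer called with ribosomal protein scaling.

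Across genes the change varied with level and structure. Of 4861 genes under 1 CPM at 0 h 8.58% were called lower, of 3366 genes from 5 to 20 CPM 37.8%, and of 70 genes over 1000 CPM 4.29%. Their median log2 fold changes were 0, -0.05 and 0.33 in that order. Under 1 CPM few genes were called either way (3.99% higher), so the low share there does not show stability. Among 11159 protein-coding genes with at least 1 CPM at 0 h and a matched transcript (98.7% of 11303), the 193 with a single exon had a median log2 fold change of -0.97, and 74.1% of them were called lower. The 482 genes with 2 exons had a median of -0.74, with 68.7% called lower. The 1744 genes with 20 or more exons had a median of 0.11, with 18.3% called lower. At least 2-fold falls were called in 47.2% of single-exon genes and 2.52% of genes with 20 or more exons. Leaving out replication-dependent histones left 179 single-exon genes with a median of -0.85. Among all 11159 genes Spearman's rho with the log2 fold change was 0.18 for exon number, -0.25 for transcript length, -0.19 for 3′ UTR length and 0.27 for the 0 h level. These are correlations across genes of the same 6 libraries, and genes are not independent replicates.

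**Figure D5:**
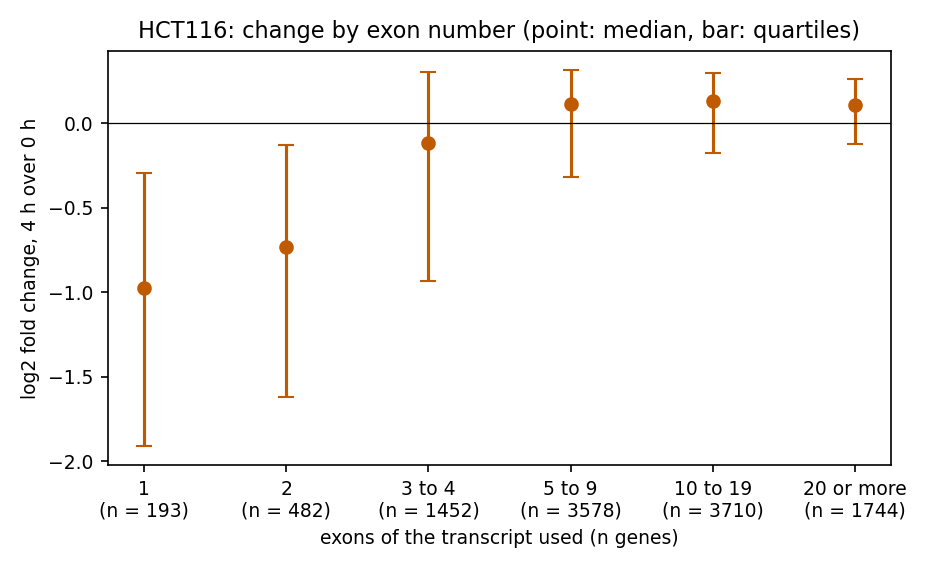
Median and quartiles of the log2 fold change (4 h over 0 h) of 11159 protein-coding genes by the number of exons of the transcript used. Genes with 1 or 2 exons lie well below 0, and genes with 5 or more lie slightly above it, which becomes below 0 with ribosomal protein scaling.

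The heptamer TATTTAT was found in the 3′ UTR of 44.3% of the 97 genes that fell at least 8-fold. The share was 43.4% for falls of 4- to 8-fold, 41.3% for 2- to 4-fold and 40.1% for less than 2-fold, called or not. Among falling genes the share thus varied little with the size of the fall, before any matching for 3′ UTR length. The falling groups include replication-dependent histones, and their median 3′ UTR went from 1131 bases in the first to 1497 in the last. Whether the share varies with the size of the fall at equal length was not tested. Of genes that rose by up to 0.5 (log2) 29.1% held TATTTAT, and of the 287 that rose by over 0.5 20.9%. The nonamer TTATTTATT was found in 13.4%, 14.2%, 12.5% and 11.7% of the falling groups in the same order, and in 6.59% and 3.83% of the rising ones. The median 3′ UTR was 1131 bases in the first of these groups and 539 in the last. Longer 3′ UTRs hold any word more often, so genes were also compared within ranges of length. From 50 to 500 bases 19.4% of the genes at least 4-fold lower and 8.15% of the genes with a positive change after TMM scaling held TATTTAT. From 500 to 1000 bases the shares were 34.4% and 16.9%, from 1000 to 2000 bases 44.5% and 30.5%, and from 2000 bases on 70.2% and 59.7%. The share was thus larger among the falling genes in each of the 4 ranges.

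The fall was not the same in LS180, where the 4 h change was compared with that in HCT116 by an interaction contrast over the 12 libraries of both lines at 4 h and 0 h, within the same fit. The change was more positive in HCT116 for 2129 genes (12.3%) and more negative for 230 (1.33%). The second count was 2536 without LS180 4 h library 1, 972, 673 and 830 without HCT116 4 h library 1, 2 or 3, 662 with DESeq2 and 451 with its size factors in edgeR, and the first was 1051 to 1143 without 1 of the HCT116 4 h libraries. Among nuclear genes with at least 5 CPM at 0 h in both lines, short noncoding RNAs and replication-dependent histones left out, RGMB, a BMP coreceptor, had the largest difference towards HCT116 loss, with a log2 fold change of -2.94 in HCT116 and -0.38 in LS180 (difference -2.56; edgeR adjusted p = 7.72e-06). DKK1 had -3.35 in HCT116 and -0.91 in LS180 (difference -2.44; edgeR adjusted p = 5.04e-06), and ZNF124, DUSP2 and GADD45B followed, of which the DUSP2 difference was -0.79 and no longer called with ribosomal protein scaling. In the other direction ID3, a BMP target that blocks basic helix-loop-helix factors, had -2.44 in HCT116 and -4.79 in LS180 (difference 2.35; edgeR adjusted p = 0.00768), a difference of 1.55 that was not called without HCT116 4 h library 1. CDKN1A, which encodes the p53-induced inhibitor p21, had -0.66 in HCT116 and -2.87 in LS180 (difference 2.22; edgeR adjusted p = 4.75e-07). In HCT116 it stood at 169, 116 and 116 CPM at 4 h and 248, 185 and 198 CPM at 0 h. ZNF440, CDCA4 and FRAT2 lay on the same side, with differences of 2.34, 2.25 and 2.16. For FOXA1 the change was -3.17 in HCT116 and -3.42 in LS180, and the difference of 0.25 (SE 0.35; edgeR adjusted p = 0.77) did not pass the test.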

How the data were processed

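The authors deposited 1 RSEM table per library with expected counts, TPM and FPKM, per the file headers. Libraries were made with a stranded total RNA kit, per the labels. The submitters' processing notes name cutadapt, STAR 2.7, RSEM 1.3.1 and hg19, while neither the annotation release nor a strand setting is given in the sources used. The expected counts the authors deposited (57820 genes; 6335 had a value that was not whole) were rounded and fitted with edgeR 4.0.16 (R 4.3.3; filterByExpr, TMM, quasi-likelihood test, Benjamini-Hochberg adjustment over 17256 genes). The fit held all 18 actinomycin D libraries in 6 groups, so that groups shared 1 estimate of the spread. The 4 siRNA libraries were not used here.

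Gene IDs were matched to GENCODE 29 (GRCh38; 52338 matched) for class, position and 3′ UTR, and no hg19 coordinate was used. Members and gene lists were chosen with earlier results of these data known. The naming rule took the 14 largest falls and rises among called genes whose groups do not overlap, short noncoding RNAs, pseudogenes, unnamed clones and replication-dependent histones left out, up to 4 called members of each list with the smallest adjusted p and up to 2 against its direction, the FOXA and STAU genes, the 8 genes highest at 0 h outside short noncoding RNAs, 4 short noncoding RNAs each way and 5 line differences each way with the same genes left out. Mitochondrial genes were also left out of the ranked parts, which the rule does not state; MT-ND6 would have been among the falls and MT-CO3 among the rises, and both are given with the mitochondrial RNAs. On simulated data for this comparison (16657 genes, 200 changed) the fit recovered 65.7% of 1.5-fold, 74.6% of 2-fold and 92.4% of 4-fold changes, and 3.7% of calls were false. Simulated counts were drawn independently from 1 mean per gene over all libraries. They held neither a change of many genes nor the difference of the libraries numbered 1. The 3.7% therefore does not cover false calls from the scaling or from those libraries. Same-numbered 4 h and 0 h libraries deviated together from their group means, with correlations of 0.50, 0.24 and 0.24 over 12395 genes for numbers 1, 2 and 3. The 4 h libraries 2 and 3 each correlated more with the other's 0 h library. The numbers were used to pair samples in the replicate block only, which was an alternative. The main fit, which gave the p-values above, did not pair libraries. Some genes that the naming rule takes are not reported here. Alternatives were DESeq2 1.42.0, 4 other scalings or library sizes, 2 filters, effective length, fewer libraries, a replicate block and leaving out libraries.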

Additional observations from a re-analysis of the deposited data

Results flagged for a closer look

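Values here are the HCT116 log2 fold change minus that of LS180. The 4 h change was flagged as different between the lines by the interaction contrast for 15 named genes, which are not all that passed it. It was more positive in HCT116 by 2.35 for ID3, 2.34 for ZNF440, 2.25 for CDCA4, 2.22 for CDKN1A, 2.16 for FRAT2, 1.81 for FOXA3, 0.80 for MYC and 0.74 for NFKBIA. It was more negative in HCT116, with differences of -2.63 for RNU5E-1, -2.56 for RGMB, -2.44 for DKK1, -1.32 for ZNF124, -0.94 for DUSP2, -0.93 for GADD45B and -0.80 for TRIB1. Over all tested genes the main fit called 2129 more positive and 230 more negative in HCT116.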

How the results depend on the processing

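With ribosomal protein scaling 112 genes were called higher and 7340 lower, 27 and 2896 of them at least 2-fold, and with total library size 2274 were called higher. At least 2-fold rises numbered 23 with a filter of 1 CPM and 54 with only the libraries at 0 and 4 h. Leaving out 1 library gave 3396 to 4492 genes higher, 3833 to 4285 lower, 78 to 132 at least 2-fold higher and 1667 to 1924 at least 2-fold lower. The replicate block gave 5031 higher and 4321 lower, 98 and 1702 at least 2-fold, and changed no other count by over 1.5 times. Of the 1697 falls of at least 2-fold, 1580 kept that size with DESeq2 and 1599 of the 1696 tested without the libraries numbered 1. The line difference gave 1253 genes more positive in HCT116 with the 1 CPM filter, 1372 with no filter and 1051 to 2101 without 1 library. It gave 662 genes more negative with DESeq2, 451 with RLE size factors, 1757 with the 1 CPM filter, 984 with no filter, 72 with ribosomal protein scaling, 128 with total library size and 136 to 2536 without 1 library. Signs turned with ribosomal protein scaling for ACTG1 (-0.23), ASNS (-0.05), BTG3 (-0.10), CTNNB1 (-0.07), EEF1A1 (-0.11), EEF2 (-0.21), ENO1 (-0.09), EPCAM (-0.03), ESRP1 (-0.08), ETV4 (-0.19), FGFR4 (-0.03), GAPDH (-0.03), HSP90AB1 (-0.04), PSAT1 (-0.00), RMRP (-0.34), RN7SL1 (-0.27), RPPH1 (-0.20), SMAD5 (-0.34), STAU1 (-0.25), STAU2 (-0.13) and YAP1 (-0.19). With total library size RMRP was at -0.07 and SMAD5 at -0.06, and without 1 library RMRP ranged from -0.02 to 0.10. HSPA8 was at 0.03 with DESeq2 and with RLE size factors, 0.13 without the libraries numbered 1, 0.01 without short noncoding RNAs and -0.14 to 0.12 without 1 library. SNHG15 was at 0.02 with effective length. The cause of these changes was not tested. Without spike-in RNA in the labels used here, the absolute loss per cell cannot be read from any of these scalings.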
